A study of Homo sapiens with 4 samples.

Results

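The genes described here encode factors that transcribe replication-dependent histone genes or process their RNA. They are SLBP, NPAT, CASP8AP2, LSM10, LSM11, ZNF473, ERI1, CPSF3, SYMPK and CSTF2, chosen by symbol in the platform annotation. Each had 1 probe set, so the set comprises 10 of the 17687 named genes and 10 of the 24351 probe sets on the array. The cells were DU145, a human line established from prostate cancer whose growth needs no androgen. They were kept for 48 h with No.10-3 at 5 µM, or with vehicle or C-30 at 0.5 or 2 µM. No.10-3 and C-30 are described by the submitters as inhibitors of PSF, the protein product of SFPQ, which is a nuclear RNA-binding protein of splicing, transcription and paraspeckles. There was 1 array per condition and therefore no replicate, no error and no test, and all values describe these 4 arrays. The question followed was whether the low histone RNA on the C-30 arrays went with lower RNA of the machinery that makes it.

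Replication-dependent histone mRNAs are made in S phase and end in a conserved stem-loop in place of a poly(A) tail. NPAT, a substrate of cyclin E and CDK2, activates their genes in the histone locus body, where FLASH, the product of CASP8AP2, helps to recruit the processing machinery. The U7 small nuclear ribonucleoprotein, whose ring holds LSM10 and LSM11, pairs with the pre-mRNA downstream of the stem-loop, SLBP binds the stem-loop itself, and ZNF473 bridges SLBP and U7. FLASH and LSM11 then bring in a cleavage complex that contains the scaffold symplekin (SYMPK), the endonuclease CPSF3 and CSTF2, all of which also serve in the cleavage of polyadenylated mRNAs. ERI1 is an exonuclease that trims and degrades the 3′ end of histone mRNA. SLBP protein is known to be limited to S phase by translation and degradation, which RNA signals do not report.

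Promoter sequences of 8 of the 10 genes were found in a RefSeq table of GRCh38.p14, each reaching from 250 bases before the start site to 50 after it. They were searched on both strands for CCAAT, the core of the NF-Y site, and for the E2F-like octamers TTTGGCGC, TTTCCCGC, TTTCGCGC and TTTGCCGC, because E2F factors drive many S phase genes. TTTGGCGC was found in CASP8AP2, CPSF3 and CSTF2, 3 of 8 promoters, against 0.652% of all 35116 promoters in the table. The other 3 octamers were found in none of the 8. CCAAT was present in NPAT, CASP8AP2 and LSM10, and in 34.6% of all promoters. For histone cluster genes, many of them near-identical copies, 50 of 60 promoters held CCAAT, 11 held TTTCGCGC and 0 held TTTGGCGC. After the sequences had been read, the octamer CCAGAATG was searched as well, which is part of the element bound by the zinc finger activator ZNF143. It was found in SYMPK and LSM10 and in 1.22% of all promoters. No matches overlapped one another. The matched sites are shown because they are sequence features that members share independently of their signals. The matched octamer is in capitals. In LSM10 it lies on the other strand and reads as its reverse complement. A match is only a match of letters.
CASP8AP2, GRCh38.p14 chr6:89829705-89829764, plus strand: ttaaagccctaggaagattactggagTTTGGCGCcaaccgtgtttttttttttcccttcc
CPSF3, GRCh38.p14 chr2:9423410-9423469, plus strand: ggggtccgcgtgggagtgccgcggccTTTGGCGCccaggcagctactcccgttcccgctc
CSTF2, GRCh38.p14 chrX:100820364-100820393, plus strand: gtgctccgtacggaagtgtgcTTTGGCGCa
SYMPK, GRCh38.p14 chr19:45863337-45863396, minus strand: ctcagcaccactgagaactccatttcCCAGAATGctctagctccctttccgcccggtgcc
LSM10, GRCh38.p14 chr1:36397927-36397986, minus strand: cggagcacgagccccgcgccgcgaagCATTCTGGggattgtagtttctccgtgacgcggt
The first matched base lay 149 bases before the start site in CASP8AP2, 218 before it in CPSF3 and 6 before it in CSTF2, so the last match crosses the start site. In SYMPK it lay 223 bases and in LSM10 52 bases before the start site.

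Signals are log2 values after RMA, a method that corrects background, equalises the arrays and summarises each probe set, and a difference of 1 on this scale is called 2-fold. The log base was inferred from the range of the values. The highest named gene read 19.66, more than a scanner's range allows in log2 units. Rescaling before deposit is therefore possible, and folds hold only for the values as deposited. Signals of different genes were read by different probes and are not compared. The background level, set at the 95th percentile of 612 negative controls, was 7.06 to 7.32 on the 4 arrays, and between 30.5% and 33.9% of named genes exceeded it. A gene that did not reach this level on either of the arrays compared is described as within background. A gene entered a comparison if the higher of its 2 values was at least 5.56, the overall median of named probe sets, and 9219 to 9319 genes did so. Of the epithelial markers EPCAM, CDH1, KRT8, KRT18 and KRT19, 4 exceeded background on all 4 arrays and CDH1 on none. Of the fibroblast and endothelial markers 0 of 5 and 0 of 3 did so on all 4 arrays, and of the 4 leukocyte markers only CD68. SFPQ itself had signals of 12.61 with No.10-3, and over the C-30 series 12.59 with vehicle, 12.60 at 0.5 µM and 12.68 at 2 µM. Its paralogues NONO and PSPC1 differed from vehicle by -0.31 and -0.07 with No.10-3, by -0.66 and -0.03 at 0.5 µM C-30 and by -0.90 and 0.06 at 2 µM C-30.

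Of the histone mRNA factors, SYMPK passed 2-fold on 1 array and no other factor did so, a share near that of all genes. With No.10-3, 0 of the 9 factors that entered the comparison passed 2-fold, against 5.68% of all 9219 genes. With C-30 at 0.5 µM, 0 of 10 passed, against 6.17% of 9267 genes, and at 2 µM 1 of 10 passed, SYMPK, against 10.8% of 9319 genes. The factors' median difference over all 10 was -0.05 with No.10-3, and with C-30 it was 0.01 at 0.5 µM and 0.02 at 2 µM, beside medians of 0.05, -0.04 and -0.06 over all genes that entered. At a threshold of 1.5-fold the counts were 2 of 9, 2 of 10 and 3 of 10, beside 23.1%, 25.6% and 33.5% of all genes, shares close to those of the factors. NPAT and CASP8AP2 passed 1.5-fold with No.10-3, SYMPK and ERI1 at the lower dose of C-30, and SYMPK, CSTF2 and LSM10 at the higher. SYMPK, CASP8AP2, ZNF473 and ERI1 were lower than vehicle on all 3 treated arrays, 4 of 10 against 28.1% of 9630 genes, and SLBP, NPAT and CPSF3 were higher on all 3, 3 of 10 against 27.5%. ERI1 turned to slightly above vehicle at 2 µM after centring, quantile normalization or correction for signal. These 3 comparisons share the vehicle array. The members exceeded background on all 4 arrays in 4 cases, SLBP, ERI1, CPSF3 and SYMPK. LSM10 did so on 2 arrays, CASP8AP2 on 1, and NPAT, LSM11, ZNF473 and CSTF2 on none.

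**Figure D1:**
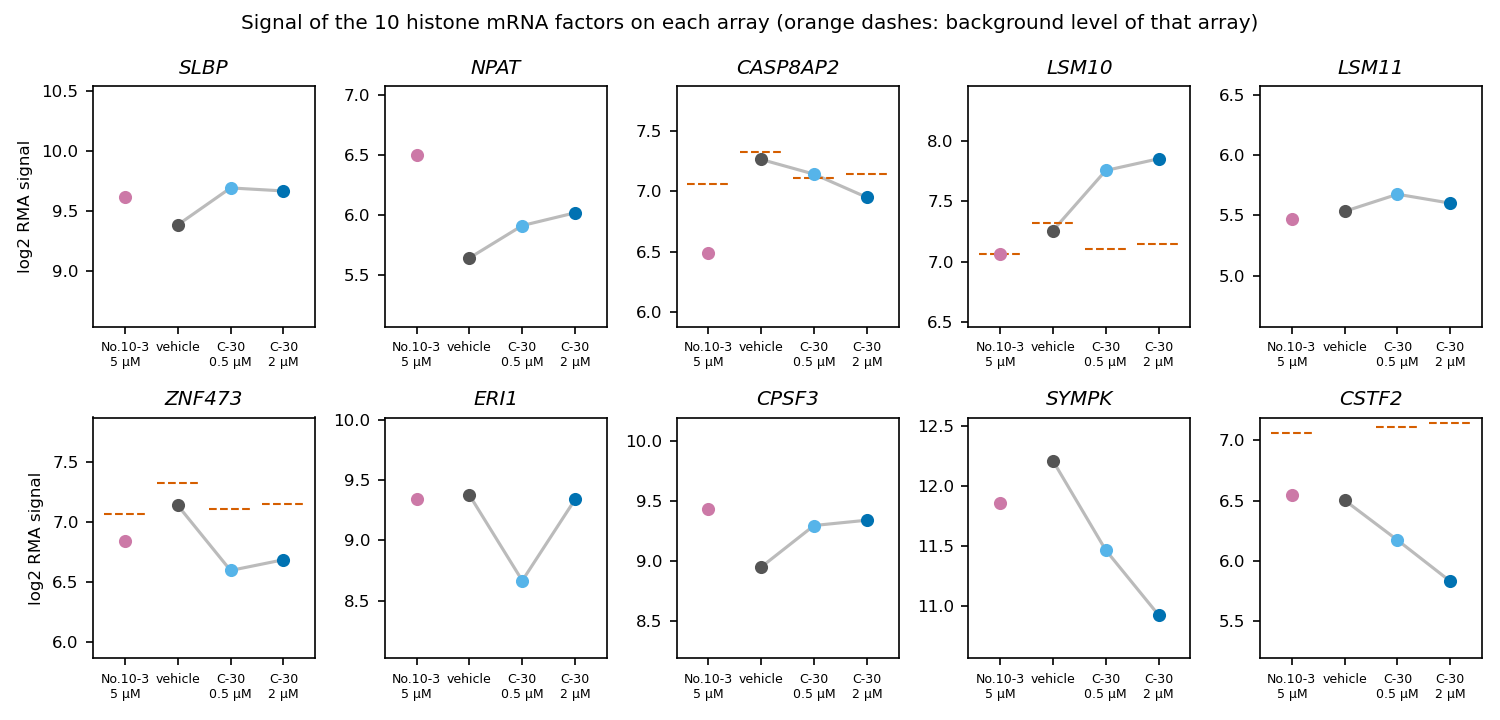
Log2 RMA signal of each of the 10 genes on the 4 arrays, with 1 point per array, each panel spanning 2 log2 units around the gene's own middle value and grey lines joining vehicle and the C-30 doses. Orange dashes mark the 95th percentile of negative controls on an array where it lies within the panel; SYMPK steps down from vehicle to the higher dose of C-30 (12.21, 11.47 and 10.93), while SLBP stays between 9.39 and 9.69.

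Among the activators of histone gene transcription, neither gene was reliably above background. NPAT, the coactivator of the histone locus body, had signals of 6.50 with No.10-3, and over the C-30 series 5.65 with vehicle, 5.91 at 0.5 µM and 6.02 at 2 µM. It was lowest with vehicle, and the difference of 0.86 with No.10-3 was larger than that of 93.4% of all genes in the comparison, although all 4 values were within background. CASP8AP2, which encodes FLASH, had 6.49 with No.10-3, and 7.27 with vehicle, 7.14 with C-30 at 0.5 µM and 6.95 at 2 µM. The No.10-3 array was the lowest, with a difference of -0.78, below that of all but 3.62% of genes, and with C-30 the differences were -0.12 and -0.31. Its signal exceeded background only with C-30 at 0.5 µM, so the size of these differences is inexact.

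SLBP, the stem-loop binding protein gene, was not lower on any treated array. Its signal was 9.62 with No.10-3, and over the C-30 series 9.39 with vehicle, 9.69 at 0.5 µM and 9.67 at 2 µM. The vehicle array was the lowest of the 4, and the differences of 0.23, 0.31 and 0.28 correspond to 1.18-fold, 1.24-fold and 1.22-fold higher values. Between 64.7% and 74.4% of genes had a lower difference in these comparisons, so SLBP lay well inside the spread of all genes. ZNF473, the zinc finger protein gene that links SLBP to U7, had 6.84 with No.10-3, and 7.14 with vehicle, 6.60 with C-30 at 0.5 µM and 6.69 at 2 µM, all within background. Its differences were -0.30, -0.54 and -0.45.

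ERI1, the 3′ exonuclease gene, departed from vehicle on 1 array only. The signal was 9.34 with No.10-3, and over the C-30 series 9.37 with vehicle, 8.67 at 0.5 µM and 9.34 at 2 µM. The difference with C-30 at 0.5 µM was -0.71 (1.64-fold lower), with 8.55% of genes lower still, whereas No.10-3 and the higher dose differed from vehicle by -0.04 and -0.03. Between the C-30 doses ERI1 was 0.68 higher at 2 µM, more than 94.5% of genes.

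Of the U7-specific ring proteins, LSM10 was higher with C-30 and LSM11 could not be read. LSM10 had signals of 7.06 with No.10-3, and over the C-30 series 7.26 with vehicle, 7.76 at 0.5 µM and 7.85 at 2 µM. Both C-30 arrays exceeded background and both other arrays did not, and the differences were -0.20 with No.10-3, and 0.50 and 0.60 at the lower and higher dose of C-30. LSM11 stayed between 5.47 and 5.68 on the 4 arrays, within background throughout, and did not enter the No.10-3 comparison. The ring also holds Sm proteins shared with spliceosomal particles. The 7 Sm genes measured include SNRPD1 and SNRPD2, whose places LSM10 and LSM11 take in the U7 ring. Of these 7 genes 0 passed 2-fold in any comparison with vehicle, where 5.68%, 6.17% and 10.8% of all genes did. Their medians were -0.16, 0.07 and -0.07. The last value turned to between 0.00 and 0.09 after centring, quantile normalization or correction for signal. SNRPF, 7.52 with C-30 at 0.5 µM against 8.44 with vehicle, had the largest difference among them at -0.92. With No.10-3 SNRPG stood at -0.49, SNRPE at -0.44 and SNRPD3 at 0.31. At 0.5 µM C-30 SNRPE stood at 0.54 and SNRPD1 at -0.26, and at 2 µM SNRPD1 stood at -0.41, SNRPD2 at -0.38 and SNRPG at 0.17.

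Among the members in the cleavage complex, only SYMPK passed 2-fold. SYMPK, the scaffold, was the member that changed most, with signals of 11.86 with No.10-3, and over the C-30 series 12.21 with vehicle, 11.47 at 0.5 µM and 10.93 at 2 µM. Every treated array lay below the vehicle array, with differences of -0.35, -0.74 and -1.28, the last corresponding to 2.43-fold. Only 2.66% of genes had a lower difference at 2 µM, against 7.67% at 0.5 µM and 18.9% with No.10-3. At 2 µM SYMPK lay between -1.28 and -1.11 under all the other settings tried and passed 2-fold under each. CPSF3, the endonuclease of the same complex, had 9.44 with No.10-3, and 8.95 with vehicle, 9.30 with C-30 at 0.5 µM and 9.34 at 2 µM. It was lowest with vehicle, with differences of 0.48, 0.35 and 0.39, opposite in sign to those of SYMPK. Between 76.5% and 80.6% of genes had a lower difference, so CPSF3 lay inside the spread of all genes. CSTF2 had 6.55 with No.10-3, and 6.50 with vehicle, 6.17 with C-30 at 0.5 µM and 5.83 at 2 µM. Its differences of 0.05, -0.33 and -0.67 put the C-30 arrays lowest, but all 4 values were within background.

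**Figure D2:**
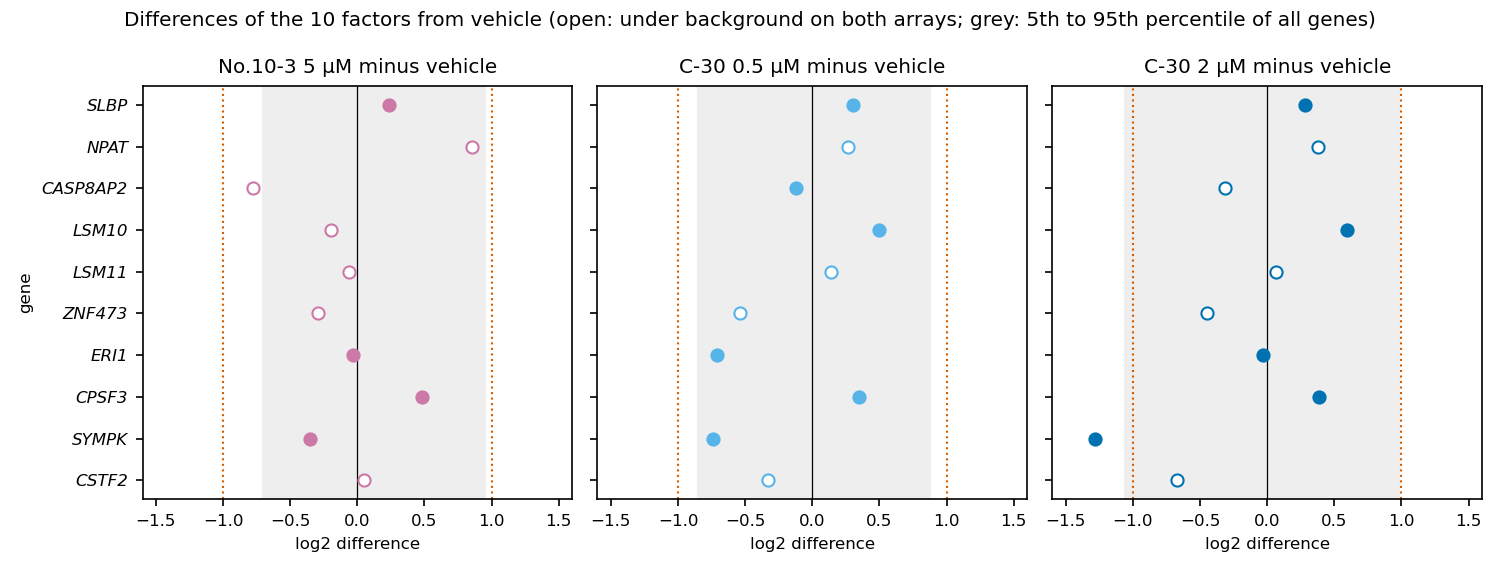
Log2 difference from vehicle (x axis) of each of the 10 genes (y axis) with No.10-3 and with the lower and higher dose of C-30, with dotted lines at 2-fold, open circles for genes within background on both arrays and a grey band from the 5th to the 95th percentile of all genes that entered. Only SYMPK at 2 µM, at -1.28, lies beyond a dotted line.

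With C-30, the RNAs that these factors act on had lower median differences than the factors. Of the 61 histone cluster genes on the array, 47 were lower than vehicle with No.10-3, where 50.2% of all 17687 genes were. With C-30, 61 of 61 were lower at 0.5 µM and 60 of 61 at 2 µM, where 50.3% and 49.1% of all genes were. H3C3 had the same signal at 2 µM as with vehicle, to within 0.001, and after centring 1 of the 53 genes that entered was higher at 2 µM. These counts include 14 genes within background in the No.10-3 comparison and 15 in each comparison of C-30 with vehicle. The median difference of the 61 genes was -0.21 with No.10-3, and -1.06 and -2.14 at the C-30 doses. Of the 53 that entered, 1 was at least 2-fold lower with No.10-3, where 1.32% of all genes were. With C-30, 32 of 53 were at 0.5 µM and 48 of 53 at 2 µM, where 2.77% and 6.15% of all genes were. At 2 µM the differences reached -5.63, in H2BC14, which had 12.15 with No.10-3, and over the C-30 series 13.23 with vehicle, 11.16 at 0.5 µM and 7.59 at 2 µM. The median signal of the 61 genes was 10.39 with No.10-3, and over the C-30 series 10.67 with vehicle, 9.35 at 0.5 µM and 7.69 at 2 µM. The low histone values were known when the factors were chosen. SLBP and CPSF3 were thus higher than vehicle on the arrays where histone RNA was lowest, by 0.28 and 0.39 at 2 µM, and SYMPK was lower by 1.28. In that comparison only 5 of the 10 factors exceeded background on an array. The labelling kit primes along whole transcripts and does not depend on a poly(A) tail, so histone RNA without a tail can be read. In whole-culture RNA, fewer cells in S phase and less histone RNA per cell cannot be told apart.

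**Figure D3:**
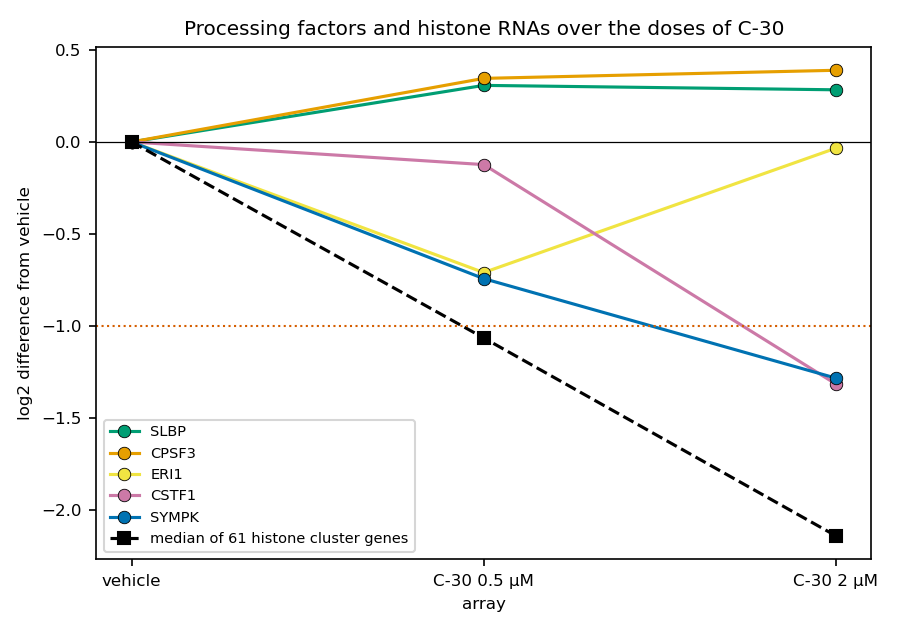
Log2 difference from vehicle (y axis) of SLBP, CPSF3, ERI1, CSTF1 and SYMPK and the median of 61 histone cluster genes on the vehicle array and the 2 C-30 arrays (x axis, evenly spaced categories), with a dotted line at 2-fold lower. CSTF1 is not a member of the set and is described below with the general cleavage and polyadenylation genes. At 2 µM 12 of those genes exceeded background on an array, with a median of -0.26. Among these 12 CSTF1 was the only 1 at least 2-fold lower, so it does not stand for the list. SYMPK (-0.74, then -1.28) and CSTF1 (-0.12, then -1.31) end below the dotted line with the histone median (-1.06, then -2.14), while SLBP (0.31, then 0.28) and CPSF3 (0.35, then 0.39) lie above vehicle.

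The doses of C-30 were also set against each other. Of the 10 factors 0 passed 2-fold between 2 and 0.5 µM, against 3.57% of 9282 genes, and 1 passed 1.5-fold, ERI1, against 17.8%. The median over the 10 was 0.01. The largest negative difference was that of SYMPK, -0.54, with 11.8% of genes lower still, and CSTF2 followed at -0.34. SYMPK, CSTF2 and CASP8AP2 stepped down from vehicle to 0.5 µM and again to 2 µM, as did 25.8% of 9506 genes. NPAT, LSM10 and CPSF3 stepped up at each dose, as did 19.6%. SLBP differed by -0.02 between the doses, a value that turned to at most 0.03 after centring, quantile normalization or correction for signal.

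Genes for the general cleavage and polyadenylation machinery, which shares SYMPK, CPSF3 and CSTF2 with the histone complex, gave mixed values. Of 15 measured genes 1 was at least 2-fold higher with No.10-3, where 4.36% of all genes were, and 0 were lower, where 1.32% were. RBBP6, a cleavage cofactor gene, was that gene, with 9.81 with No.10-3 against 8.79 with vehicle, a difference of 1.03 that came below 2-fold after centring, quantile normalization or correction for signal. CSTF2T, the paralogue of CSTF2, stood at 0.60, within background, and PCF11 at 0.52. With C-30 at 0.5 µM 1 gene was at least 2-fold lower, where 2.77% of all genes were, and at 2 µM 2 were, where 6.15% of all genes were. At least 2-fold higher were 0 at either dose, where 3.4% and 4.67% of all genes were. After quantile normalization or correction for signal, 1 was higher at each dose. CPSF4, a zinc finger subunit of the polyadenylation specificity factor, stood at -1.03 and -1.35 at the C-30 doses but within background, and the first value came below 2-fold after centring. CSTF1, a partner of CSTF2 in the cleavage stimulation factor, had 9.57 with No.10-3, and over the C-30 series 9.57 with vehicle, 9.45 at 0.5 µM and 8.26 at 2 µM. It was clear of background on each array and fell by 1.31 at 2 µM only. NUDT21, a subunit of cleavage factor I, was higher at 2 µM by 0.88. The poly(A) polymerase gene PAPOLA was higher at 0.5 µM by 0.93, and RBBP6 by 0.88. CPSF2, which forms the core of the histone cleavage complex with SYMPK and CPSF3, differed by 0.50, 0.27 and 0.04 and was picked out after its values were seen. The medians over the 15 genes were 0.38, -0.03 and -0.24.

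Regulators of histone gene transcription included genes that fell with the higher dose of C-30. Of 11 measured genes 10 entered at 2 µM. Of these 3 were at least 2-fold lower and 0 higher, where 6.15% and 4.67% of all genes were. The median was -0.79, and 8 of 10 were below vehicle, as were 53.5% of all genes that entered. CDK2, the kinase that acts on NPAT with cyclin E, had 10.63 with No.10-3, and over the C-30 series 11.17 with vehicle, 10.47 at 0.5 µM and 9.81 at 2 µM. All treated arrays lay below vehicle, by differences of -0.54, -0.70 and -1.36 in that order. CCNE2, a cyclin E gene within background, stood at -1.46 at 2 µM, and E2F1, the G1/S transcription factor gene, at -1.01, with a vehicle signal of 7.44 just above background and a signal below it with C-30. After centring, 2 of the 10 passed 2-fold. At 0.5 µM E2F1 alone of the 10 was at least 2-fold lower, at -1.17, where 2.77% of all genes were, with CDK9, the elongation kinase gene, at -0.62, and the median was -0.33. With No.10-3 0 of 10 passed, where 5.68% of all genes did, and the median was -0.15. There CCNE2 stood at -0.75, within background, and E2F1 at -0.71, with its No.10-3 signal below background. CREBBP, HINFP and COIL, which encode a histone acetyltransferase, a histone H4 promoter factor and a Cajal body scaffold, had -0.38, -0.52 and 0.65 at 2 µM and were picked out after their values were seen.

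Decay factors of histone mRNA went both ways. Of 20 measured genes 19 entered with No.10-3, 2 of them at least 2-fold higher and 0 lower, where 4.36% and 1.32% of all genes were. LSM5, a gene for a ring subunit that binds RNA tails, stood at -0.95 there and passed 2-fold after centring, quantile normalization or correction for signal. With C-30 18 entered, of which 1 was at least 2-fold higher and 0 lower at 0.5 µM, where 3.4% of all genes were higher, and 2 were higher and 1 lower at 2 µM, where 4.67% and 6.15% of all genes were. TUT7, the terminal uridylyltransferase that tails histone mRNA for decay, had 8.15 with No.10-3, and over the C-30 series 6.98 with vehicle, 7.91 at 0.5 µM and 8.14 at 2 µM. All 3 treated arrays exceeded background and the vehicle array did not, so the differences of 1.16, 0.93 and 1.16 are inexact. DIS3, a nuclease of the exosome, was higher by 1.04 at either dose of C-30, again with vehicle below background. XRN1, the cytoplasmic exonuclease gene, stood at 1.47 with No.10-3, inexact for the same reason. UPF1, the helicase recruited to the stem-loop for decay, had 8.78 with No.10-3, and over the C-30 series 8.28 with vehicle, 7.48 at 0.5 µM and 7.08 at 2 µM. Its differences were 0.50 with No.10-3 and -0.80 and -1.20 at the C-30 doses, and the signal at 2 µM was below background.

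Genes of the cap complex, export and translation of histone mRNA held 1 value past 2-fold among 10 measured genes in the comparisons with vehicle, a higher one at 2 µM C-30, where 4.67% of all genes were higher. SRSF3, an export adaptor that binds histone RNA, had 10.55 with No.10-3, and over the C-30 series 9.89 with vehicle, 10.67 at 0.5 µM and 11.08 at 2 µM. The vehicle array was the lowest, and the differences were 0.66, 0.78 and 1.19 in that order. The translation initiation scaffold gene EIF4G1 stood at -0.93 and the helicase gene DDX19B at -0.89 with C-30 at 2 µM. MIF4GD, which encodes the SLBP partner in histone mRNA translation, stood at -0.88 with C-30 at 0.5 µM, within background. With No.10-3 NCBP1, a cap-binding subunit gene, stood at 0.40 and DDX19B at -0.39. SRSF7 stood at 0.65 with C-30 at 0.5 µM.

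Of the genes of SLBP protein turnover, 6 entered each comparison with vehicle. At least 2-fold higher were 1 with No.10-3, 1 with 0.5 µM C-30 and 2 with 2 µM C-30. Of all genes 4.36%, 3.4% and 4.67% were. At least 2-fold lower were 0 of the 6, where 1.32%, 2.77% and 6.15% of all genes were. The medians over the 6 were 0.47, -0.20 and 0.25, and 0, 4 and 3 of them lay below vehicle. CDK1, the kinase that with cyclin A marks SLBP for destruction at the end of S phase, had 10.43 with No.10-3, and over the C-30 series 9.14 with vehicle, 10.37 at 0.5 µM and 10.75 at 2 µM. It passed 2-fold on each treated array, at 1.29, 1.23 and 1.61. CCNA2, the cyclin A gene, had 9.09 with No.10-3, and over the C-30 series 8.55 with vehicle, 9.16 at 0.5 µM and 9.66 at 2 µM, with differences of 0.54, 0.61 and 1.11. Of the other turnover genes CUL4A stood at 0.85 with No.10-3, CCNF at -0.66 with C-30 at 0.5 µM and CSNK2A1 at 0.51 with C-30 at 2 µM.

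Cell cycle genes were also read, and their part in the values above was not tested. Of 15 S phase genes 0 passed 2-fold with No.10-3, where 5.68% of all genes did. With C-30 1 was lower at 0.5 µM and 4 at 2 µM, where 2.77% and 6.15% of all genes were. The medians were -0.08 with No.10-3, and -0.28 and -0.47 at the C-30 doses. The helicase gene MCM5 was at -1.05 and -1.54 at the C-30 doses, MCM4 at -1.17 and CDC45 at -1.13 at 2 µM. After quantile normalization or correction for signal, 0 passed at 0.5 µM. After centring or quantile normalization, 3 in place of 4 passed at 2 µM. At 0.5 µM RRM1, a ribonucleotide reductase subunit gene, stood at 0.82 and the replication licensing gene CDT1 at -0.80, within background. With No.10-3, MCM6 stood at 0.90, CDC45 at -0.79 and RRM1 at 0.77. Of 12 genes of G2 and mitosis 4 were at least 2-fold higher with No.10-3, and 3 at each dose of C-30, where 4.36%, 3.4% and 4.67% of all genes were, with medians of 0.79, 0.01 and 0.21. The cyclin gene CCNB2 was at 1.99, 1.08 and 1.70, and the kinetochore gene CENPF at 3.45, 2.39 and 2.07, with vehicle below background. The topoisomerase gene TOP2A stood at 1.56 with No.10-3, the spindle motor gene KIF11 at 1.42 with 0.5 µM C-30 and the cyclin gene CCNB1 at 1.07 with 2 µM C-30.

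**Figure D4:**
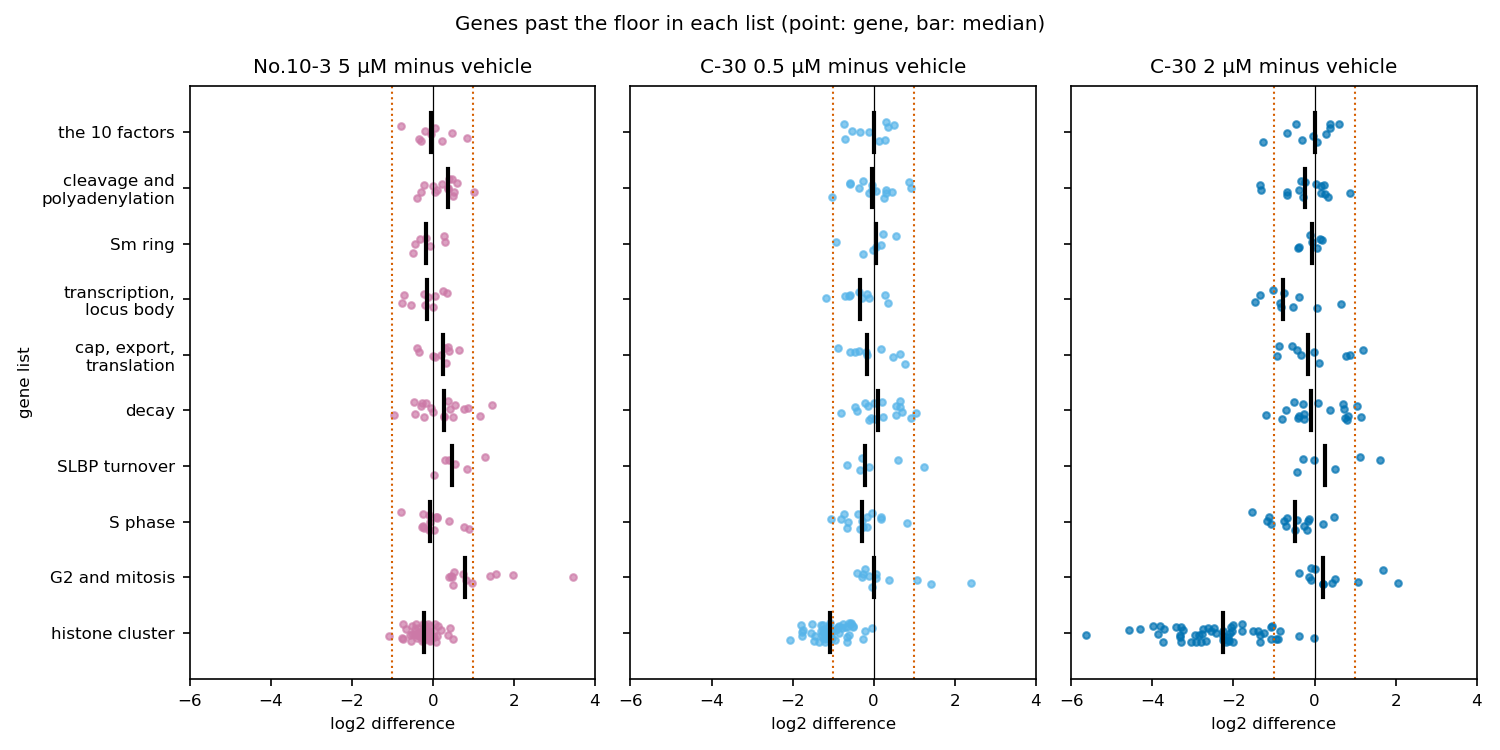
Log2 difference from vehicle (x axis) of the genes that entered each comparison, by gene list (y axis), for No.10-3 and for the lower and higher dose of C-30, with 1 point per gene, a black bar at the median and dotted lines at 2-fold. The factors that entered, 9 with No.10-3 and 10 at each dose of C-30, have medians of -0.035, 0.01 and 0.02. Of these 4, 6 and 5 exceeded background on an array, with medians of 0.10, 0.09 and 0.28. The 53 histone cluster genes that entered shift to medians of -1.08 and -2.27 with C-30.

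The number of arrays limits these values. The 2197 positive control probe sets were counted without the minimum signal. Of these 6.55% passed 2-fold with No.10-3, and 8.06% and 11.3% did so at the lower and higher dose of C-30. The shares of genes were 5.68%, 6.17% and 10.8%, but those genes had to reach the minimum, so the shares are not counted alike. A single 2-fold value such as that of SYMPK has no replicate check. The share of genes past 2-fold that were higher was 76.7% with No.10-3 and 43.2% at the higher dose of C-30, against 61.4% and 55.4% after centring.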

How the data were processed

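Total RNA of DU145 cells was labelled with biotin by the WT PLUS kit, per the labels' protocols. Per the submitters' processing notes, the arrays were processed in Expression Console (Affymetrix, 1.3.0) by RMA. The authors deposited 1 log2 signal per probe set and array. The genome build was not given in the sources used here.

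The platform annotation paired 17709 of 24351 probe sets with a single symbol and 0 with several. The remaining 6642 were unnamed, and 2903 probe sets were controls. Current symbols were taken through the Entrez identifier, which matched for all 17709. For 20 genes with several probe sets the mean was taken. Differences between arrays were computed over the whole table, with a minimum signal of 5.56 on the higher array and a threshold of 2-fold. The 10 members and all gene lists were chosen with earlier results of these data known. Named were the members and, in each list and comparison with vehicle, the 3 genes with the largest difference, except that histone cluster genes are given by count, median and range. With 1 array per condition no test was made. No.10-3 and C-30 were used at different doses and are shown side by side. Computations ran in numpy 2.4.6, pandas 2.3.3 and statsmodels 0.14.6 under Python 3.11.15, with plots by matplotlib 3.10.9.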

Additional observations from a re-analysis of the deposited data

How the results depend on the processing

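The other settings were median centring of each array, quantile normalization, a lowess correction for mean signal (fraction 0.3), no minimum, a minimum at the 75th percentile (7.90), a threshold of 1.5-fold and the per-sample tables, which differed from the series table by at most 5e-05. With the minimum at the 75th percentile 4 members remained, and the median difference of the members became 0.10 on the No.10-3 array and -0.20 on the array of 0.5 µM C-30. At 1.5-fold the members past the threshold numbered 2 with No.10-3, 2 and 3 at the lower and higher dose of C-30, and 1 between the C-30 doses. The 211 values of single members under the other settings moved by at most 0.17, and 9 changed sign, those of CSTF2 with No.10-3, ERI1 with C-30 at 2 µM and SLBP between the C-30 doses, each at most 0.05 in size in the values reported above. The limit for calling a value moved was the robust SD of 63 ERCC probe sets, 0.126 to 0.271, whose median signal was at most 4.15 on an array and so within background. No paired analysis was possible because each condition has 1 array. Signal over background limits the readings of NPAT, CASP8AP2, LSM11, ZNF473 and CSTF2, and of LSM10 without C-30.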
